A study of Mus musculus with 8 samples.

Results

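Stromal nuclei carrying transcripts of Ak5 (an adenylate kinase) and Col14a1 (a collagen that decorates fibrils) were examined in mouse kidney by single-nucleus RNA-seq. A nucleus was a member when at least 2 of Ak5, Kcnd3, Col14a1, Gucy1a2 and Tafa1 had 1 unique molecular identifier (UMI) or more, when these 5 genes together had at least 3 UMIs, and when no UMI of Smoc2, Adamtsl1, Alx1, Flt1 or Myh11 was found. Nuclei entered with 500 genes or more, no fewer than 800 UMIs and a mitochondrial share of up to 2% of UMIs, and 2871 of these 81391 nuclei (3.53%) were members. Members were thus selected on the measured values of these 10 genes, whose levels are given below as a description and were not tested.

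Kidneys came from 8 male C57BL/6J mice, 2 in each of 4 groups. Both alleles of Bmal1 (the gene Arntl) were floxed in every mouse, and every mouse drank doxycycline (2 mg/ml) for 2 weeks from the age of 8 weeks. The Ctrl mice (Bmal1 lox/lox) had no other allele, whereas their cKOt littermates (Bmal1 lox/lox/Pax8-rtTA/LC-1) also had a transgene whose Pax8 promoter drives the doxycycline-responsive activator in renal tubules and a second that supplies Cre recombinase. The transgenes thus aim at tubules, not at stroma. Kidneys were taken at ZT4 or ZT16, which are 4 h after the lights went on or off. Nuclei of frozen tissue were sorted by DAPI, and the authors deposited UMI counts per gene and barcode. The 8 libraries held between 36548873 and 54500820 UMIs in nuclei that passed the filters, of which the members contributed 9172710 (681449 to 1455601 per library). A median member had 2541 UMIs and 1484 genes, against 3736 UMIs in all other nuclei. Between replicates of a group, summed member counts differed by 2.68 to 3.70 times the sampling variance, so no 2 libraries were counted as 1. In a principal component analysis of the member sums, the cKOt ZT4 libraries lay at the opposite ends of the first component, which held 23.6% of the variance. Libraries shared 823 barcodes among nuclei that passed the filters, and 1 barcode was that of a member in 2 libraries.

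Renal stromal cells fill the space between tubules and vessels, where fibroblasts and pericytes lay down matrix, secrete signals and, around vessels, contract. Their tone is set in part by nitric oxide, which activates soluble guanylate cyclase, raises cGMP and thereby activates the kinase encoded by Prkg1. Gucy1a2 encodes a subunit of that cyclase, Kcnd3 a potassium channel of the rapidly inactivating A type, and Tafa1 a secreted chemokine-like peptide. Like most cells, stromal cells hold a circadian clock, in which the ARNTL protein with CLOCK or NPAS2 drives Per, Cry and Nr1d genes whose products repress their own activators, while ROR and REV-ERB (Nr1d) receptors act on Arntl, Clock and Npas2.

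The rule genes differed in how many members carried them. Gucy1a2 had a UMI in 89.5% of members, Kcnd3 in 85.3%, Ak5 in 73.8%, Col14a1 in 66.3% and Tafa1 in 52.2%. All 5 were found in 652 members (22.7%), 4 in 1081 (37.7%), 3 in 681 (23.7%) and 2 in 457 (15.9%), and the median member had 13 summed UMIs. Both Ak5 and Col14a1 were found in 52.6% of members and neither in 357 (12.4%), so the pair that names these nuclei was not detected in all of them. Levels are in CPM, the usual scaling of a gene's UMIs to the summed UMIs of the named nuclei, here without mitochondrial genes, and a level given without a library is pooled over the 8 libraries. Ak5 stood at 1083 and 1256 CPM in Ctrl ZT4, 711 and 683 in Ctrl ZT16, 867 and 1025 in cKOt ZT4, and 720 and 834 in cKOt ZT16. Col14a1 stood at 795 and 677 in Ctrl ZT4, 603 and 524 in Ctrl ZT16, 516 and 424 in cKOt ZT4, and 540 and 647 in cKOt ZT16. Kcnd3 ranged from 1066 to 1425 CPM over the libraries, Gucy1a2 from 1292 to 1971 and Tafa1 from 599 to 884.

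At the edge of the rule, 146 members had exactly 3 summed UMIs, and 364 nuclei outside it had 2 rule genes with 1 UMI each and no excluded gene. Of 7 general stromal genes (Pdgfrb, Pdgfra, Ebf1, Lama2, Meis1, Col1a2, Tcf21), at least 2 had a UMI in 47.9% of the nuclei just inside and 20.3% of those just outside. The excluded genes removed 4196 (59.4%) of the 7067 nuclei that met the positive part of the rule, 86.0% of them carrying Adamtsl1, and 1168 were removed by a single UMI. Members are thus the nuclei without detected Adamtsl1 among a larger stromal set rather than all nuclei of that kind. A second set, used for comparison, held 1059 nuclei with at least 2 of Smoc2, Adamtsl1 and Alx1, at least 3 UMIs of them fewer than 2 rule genes and no UMI of Flt1 or Myh11 (Smoc2/Adamtsl1 nuclei).

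Stromal genes that the rule did not name were also looked at. The panel of 7 was chosen after the data were seen, so its shares are a description. At least 2 of the 7 general stromal genes had a UMI in 93.8% of members, 94.5% of Smoc2/Adamtsl1 nuclei and 17.2% of all other nuclei, a group that includes the removed stromal nuclei. The remaining 179 members had fewer than 2, at between 3.95% and 11.5% of the members of a library. Of 14 stromal identity genes, 13 stood at least 2-fold above the other nuclei, and 11 were above them in all 8 libraries. Meis1, a stromal transcription factor, was found in 80.2% of members (823 CPM against 99.0 in other nuclei), and Pdgfrb, the receptor for the growth factor that recruits mural cells, in 63.2% (448 against 25.8). Pdgfra, its fibroblast relative, stood at 408 against 40.3. Lum, which encodes a fibroblast proteoglycan, was near 0 (0.763).

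Markers of contractile and perivascular cells differed from gene to gene. All 8 pericyte genes were at least 2-fold above other nuclei but most were low: Notch3, a receptor of mural cells, stood at 165 CPM, Rgs5 at 8.83 and Higd1b at 1.31. Mylk, the kinase of myosin light chain, stood at 1771 against 348, Tagln at 116 and Acta2 (smooth muscle actin) at 50.9, whereas the smooth muscle genes Cnn1 and Rergl were at 0.218 and 0.327 and the renin genes Ren1 and Akr1b7 at 8.29 and 0.436. Acta2 ranged from 1.47 to 119 over the libraries. Fhl2, a cofactor of contractile gene expression used as a mesangial marker, stood at 1541 against 465 in Smoc2/Adamtsl1 nuclei, and Agtr1a, the angiotensin receptor, at 505 against 134. Gata3, a mesangial transcription factor, stood below other nuclei (31.2 against 50.0). Of the 6 mesangial genes, 5 stood at least 2-fold above other nuclei, and the list summed to 2177 to 3264 CPM against 205 to 283. Of the 7 smooth muscle and juxtaglomerular genes, 4 stood at least 2-fold above them. Cnn1, Rergl, Akr1b7 and Gata3 were low, and with markers so mixed members are called stromal here without a finer name. The rule left out nuclei with the smooth muscle gene Myh11, so low smooth muscle genes follow in part from the selection.

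Markers of other cells were found at levels that differed by type. The rule left out nuclei with the endothelial gene Flt1, so low endothelial genes follow in part from the selection. The 6 endothelial genes summed to between 199 and 275 CPM over the libraries, against 449 to 713 in other nuclei, the 6 leukocyte genes to at most 73.5, and the 5 adipocyte genes to at most 10.3, with Lep at 0. The 5 nerve and Schwann cell genes summed to 4.32 to 33.0, highest in cKOt ZT16 replicate 2, against 9.91 to 16.5 in other nuclei. Of these 5 genes 3 were at 0, Sox10 and Th among them. The 6 proximal tubule genes summed to 1611 to 2619 in members, all below the 4629 to 6437 of other nuclei, and 1015 members (35.4%) had UMIs of at least 3 of them. The 4 genes of the thick ascending limb summed to 802 to 2012, against 2957 to 5303. The 8 genes of the distal tubule and collecting duct summed to 324 to 1519, highest in cKOt ZT4 replicate 1, which overlapped the 1309 to 1873 of other nuclei. The 4 podocyte genes summed to 37.1 to 117, against 45.2 to 66.6. Tubule transcripts were thus found in every library of members.

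Genes not used to choose the members were compared with all other nuclei. Of 4098 genes at 50 or more CPM, 543 were at least 2-fold and 230 at least 5-fold above other nuclei in each of the 8 libraries. The 20 genes that led by the lowest ratio of any library, which ranged from 13.9 to 18.8, included elastic fibre and matrix genes: Fbln5 (fibulin, 1267 CPM against 191 in Smoc2/Adamtsl1 nuclei and 16.1 in all nuclei that were neither members nor removed), Loxl1 (an elastin cross-linking oxidase, 185, 42.7 and 3.02) and Adamts14 (a collagen-processing protease, 87.0, 4.65 and 0.973). Fhl2, Carmn (a long non-coding RNA of contractile cells, 402, 121 and 8.24) and Pdgfrb (448, 217 and 9.91) were among them, as were Crispld2, Pi15, Vstm4, Ano5, Gpr176, Pcdh18, Dennd2a, Abca8a, Wdr66, Atf7ip2, Gm43847, Gm41414, B530045E10Rik and Gm17167. In each of the 20 genes the nuclei removed by an excluded gene lay below the members and above Smoc2/Adamtsl1 nuclei (Fbln5 at 993, Fhl2 at 1181), as the plot of leading genes shows. These levels describe nuclei chosen by correlated genes and carry no test.

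**Figure D1:**
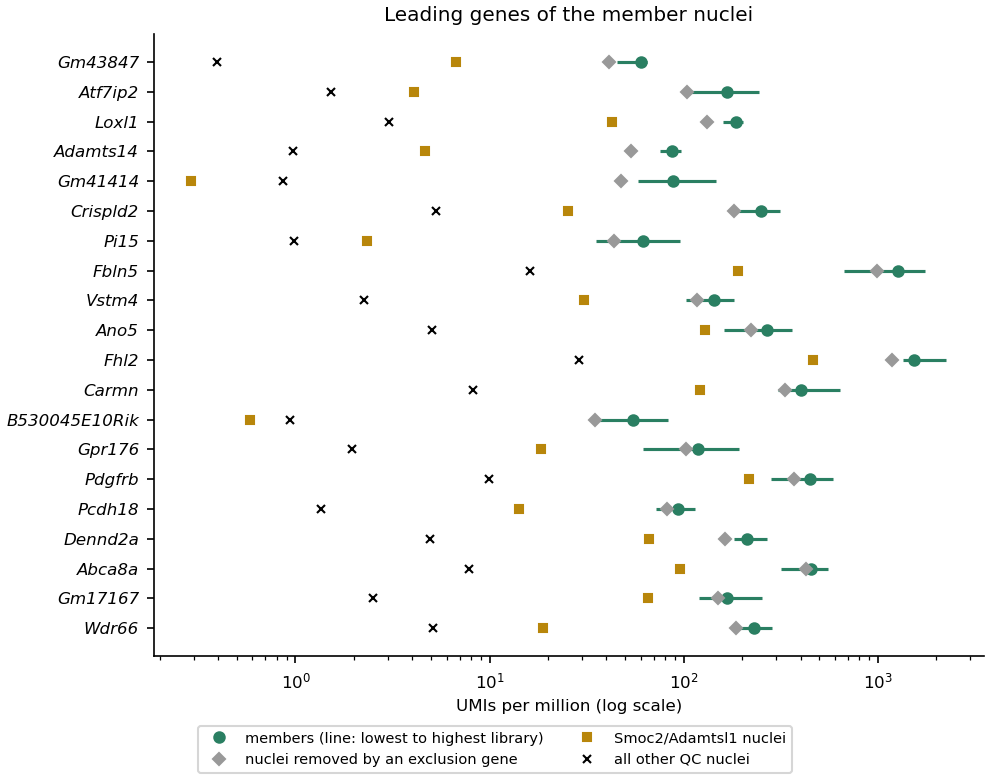
Levels of the 20 leading genes of the members (rows) in CPM on a log scale. Circles are members with a line from the lowest to the highest of the 8 libraries, diamonds nuclei removed by an excluded gene, squares Smoc2/Adamtsl1 nuclei and crosses all nuclei that were neither members nor removed. Diamonds lie left of the circles (Fbln5 993 against 1267) and right of the squares in all 20 genes.

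Members and Smoc2/Adamtsl1 nuclei shared general stromal genes and differed in particular ones. In each of the 8 libraries, 133 genes were at least 2-fold higher in members and 129 at least 2-fold lower. The files held 32285 genes before any limit on level. Ranked by the lowest ratio of any library, with pooled levels printed, the 10 highest in members were Clca3a1 (132 against 1.16 CPM), Atf7ip2, Slco2a1 (a prostaglandin transporter, 227 against 10.2), Igfbp3 (an insulin-like growth factor binding protein, 943 against 34.6), Hpgd (the enzyme that degrades prostaglandins, 183 against 3.49), Adamts14, Rbfox1 (a splicing regulator, 1343 against 50.3), Gm41414, Nrxn3 (a synaptic adhesion molecule, 590 against 35.7) and Crispld2 (249 against 25.3). Ranked the same way, the 10 lowest were 6530403H02Rik, Gm32647, Cntn1, Kcnd2, Ahrr, Lrriq1, Ltbp1, Tnn, Aox3 and Vcan (the proteoglycan versican, 4.80 against 434). Of the A-type potassium channels, the rule gene Kcnd3 stood at 1296 in members and 86.6 in Smoc2/Adamtsl1 nuclei, while Kcnd2 stood at 11.1 and 968. Kcnd3 entered the choice of both sets, so its own difference follows in part from that choice. The other rule genes and Smoc2, Adamtsl1 and Alx1 were also used in opposite ways to choose the sets. Differences in genes correlated with them thus follow in part from the choice, and none was tested. Nuclei removed by an excluded gene held Igfbp3 at 654, Rbfox1 at 740, Nrxn3 at 320 and Hpgd at 120. Hpgd ranged from 82.3 to 304 over the libraries of members.

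Matrix genes were the longest list. Of its 28 genes, 19 were at least 2-fold above other nuclei and 21 were above them in all 8 libraries, led by Lama2 (laminin, 1050 CPM), the basement membrane collagens Col4a1 (700) and Col4a2 (605), the basement membrane linker Nid1 (302), fibrillin Fbn1 (262) and the fibrillar and microfibrillar collagens Col1a2 (251) and Col6a3 (238). Tenascin Tnc (18.9 in members, 497 in Smoc2/Adamtsl1 nuclei), Vcan and laminin Lama4 (14.2 and 120) were low in members and high in the other set. Of the 12 measured genes of nitric oxide and cGMP signalling, 6 were at least 2-fold above other nuclei: Prkg1 (4196), the rule gene Gucy1a2 (1632), the phosphodiesterase Pde3a (1485), the cyclase subunits Gucy1a1 (369) and Gucy1b1 (148), and Mrvi1, a substrate of the cGMP kinase (279). The cGMP phosphodiesterase Pde5a stood at 19.8, against 120 in Smoc2/Adamtsl1 nuclei.

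Of 27 signalling receptors and ligands, 12 were at least 2-fold above other nuclei. Tgfbr3, a co-receptor for transforming growth factor, stood at 558 CPM, the retinoic acid receptor Rarb at 422, the endothelin receptor Ednra at 99.8 and Aldh1a2, which makes retinoic acid, at 43.3 against 2.62 in Smoc2/Adamtsl1 nuclei. The ligands Wnt5a (12.8 against 115) and Rspo3 (11.9 against 111) were low. Of 16 interstitial endocrine genes, 6 were at least 2-fold above other nuclei, among them Angpt1, the vessel-stabilising ligand (668), Epas1, the oxygen-regulated transcription factor (423), and Ptgis, which makes prostacyclin (118). Of 9 A-type potassium current genes, 3 were, namely Kcnip3 (67.8), Kcnd1 (2.18) and the rule gene Kcnd3, which is high by selection.

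Transcripts of immediate early genes, which rise within minutes of stimulation or handling, were present in members, and 7 of 9 stood at least 2-fold above other nuclei, led by Egr1 (487 CPM), Junb (192) and Fos (57.5). Their sum was 1435 and 420 in Ctrl ZT4, 1235 and 886 in Ctrl ZT16, 726 and 791 in cKOt ZT4, and 1183 and 852 in cKOt ZT16, so replicates of Ctrl ZT4 spanned the whole range. The 11 glucocorticoid response genes summed to 1743 to 3956, again with Ctrl ZT4 replicate 1 highest.

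Members were not uniform. Genes were compared between the 1510 members with both Ak5 and Col14a1 and the 357 with neither (median 2833 and 2514 UMIs), and of 2475 genes at 100 or more CPM in either, 392 were higher and 254 lower with both in all 8 libraries. The genes named were chosen after their values were seen, and the split uses 2 rule genes, so these values are a description. With both, Igfbp3 stood at 1210 CPM against 246, Fbln5 at 1557 against 445, Adam12 (a metalloprotease) at 1059 against 286, Slc40a1 (the iron exporter) at 419 against 109 and Hpgd at 244 against 55.4. With neither, Dgkb (a diacylglycerol kinase) stood at 364 against 11.1, Ncam1 (a neural cell adhesion molecule) at 304 against 12.3, Piezo2 (a mechanically gated channel) at 268 against 10.5, Cdh6 at 158 against 7.21, the potassium channel Kcnq5 at 154 against 3.31 and Stac at 146 against 1.56. These genes were near absent from the double-positive nuclei, and only Ncam1 among these 6 was high in Smoc2/Adamtsl1 nuclei (242). The share of members with neither gene ran from 8.82% in Ctrl ZT4 replicate 2 to 18.6% in cKOt ZT4 replicate 2.

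Splits by a single rule gene, with genes also named after their values were seen, gave ratios of different size. They covered only part of the 2871 members, namely 1941 with and 633 without Ak5 and 1765 and 853 by Col14a1. By Kcnd3 they held 2120 and 341, and by Tafa1 1293 and 1283. Dgkb stood at 11.9 CPM with Col14a1 and 210 without it, and at 18.6 with Ak5 and 240 without it. Piezo2 stood at 11.7 and 157 by Col14a1 and at 16.4 and 189 by Ak5. Members with Kcnd3 held more Nrxn3 (703 against 340 CPM), and members with Tafa1 more Rbfox1 (1657 against 1284) than those without. Pairs of rule genes occurred together about as often as the product of their single shares (Kcnd3 and Gucy1a2 in 77.0% of members against 76.4%), with the widest gap for Ak5 and Col14a1 (52.6% against 49.0%). Since at least 2 rule genes were required, these shares are not free to vary.

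Members made up 3.57% (95% Wilson interval 3.22 to 3.95) and 3.75% (3.39 to 4.14) of nuclei in Ctrl ZT4, and 3.58% (3.24 to 3.95) and 3.76% (3.42 to 4.14) in Ctrl ZT16. In cKOt they made up 2.998% (2.69 to 3.34) and 2.25% (1.98 to 2.56) at ZT4, and 4.18% (3.78 to 4.62) and 4.15% (3.80 to 4.54) at ZT16. Intervals cover counting error only. The 2 cKOt ZT4 libraries were the lowest and the 2 cKOt ZT16 libraries the highest. The cKOt mean was 3.397% ± 0.940 (SD, n = 4) against 3.66% in Ctrl, a difference of -0.268 percentage points (two-sided exact permutation test, p = 0.6). The ZT16 mean was 3.92% ± 0.297 (SD, n = 4) against 3.14% at ZT4, a difference of 0.776 percentage points (exact permutation test, p = 0.0571, where 4 against 4 can reach 0.0286). Neither difference passed a limit of 0.05, before or after adjustment over the pair. With the members carrying at least 3 proximal tubule genes left out, this order did not hold: cKOt ZT16 replicate 1 stood at 2.04%, below all 4 Ctrl libraries (2.34% to 2.61%), and the differences were 0.328 percentage points between times and -0.479 between genotypes (exact permutation test, p = 0.314 and 0.114). Without cKOt ZT4 replicate 2 the difference between times was 0.480 percentage points and that between genotypes turned to 0.113.

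That library also stood apart in the balance of the stromal sets. It held 1.09 members per Smoc2/Adamtsl1 nucleus, against 2.09 to 4.58 in the other 7. After each nucleus was thinned to 1500 UMIs, leaving out shallower nuclei, the members made up 3.27% and 4.68% in Ctrl ZT4, 4.01% and 3.82% in Ctrl ZT16, 2.34% and 1.91% in cKOt ZT4, and 4.74% and 4.25% in cKOt ZT16. The cKOt ZT4 libraries were again the lowest (ZT16 against ZT4, difference of means 1.16 percentage points, exact permutation test, p = 0.143).

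**Figure D2:**
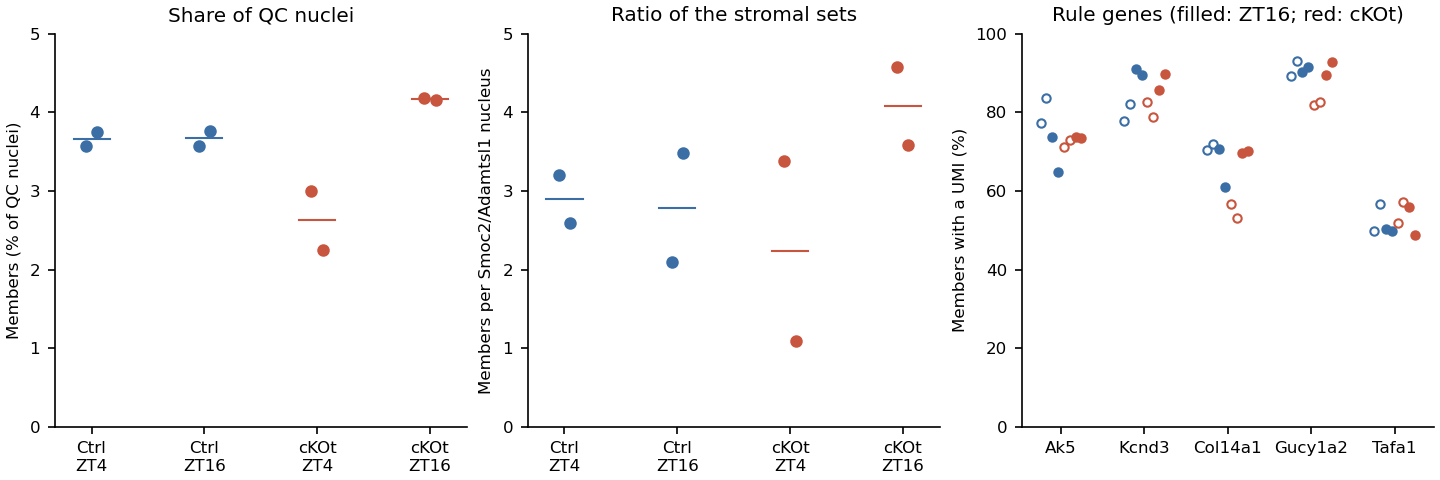
Left, members as a percentage of nuclei that passed the filters; middle, members per Smoc2/Adamtsl1 nucleus; right, percentage of members with a UMI of each rule gene. Points are libraries and bars group means, Ctrl in blue and cKOt in red (in the right panel, open circles are ZT4 and filled circles ZT16). The cKOt ZT4 libraries lie lowest on the left (2.998% and 2.25%) and 1 of them lowest in the middle (1.09).

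The first comparison of levels asked which genes of the members differed with time of day in Ctrl mice. Of 12523 genes tested on counts summed per library, 7 (0.0559%) were called at an adjusted p under 0.05 (edgeR quasi-likelihood test with Benjamini-Hochberg adjustment), 3 higher and 4 lower at ZT16, and 744 had an unadjusted p under 0.05. The 2 smallest p-values were not those of clock genes. Rbfox1 (ENSMUSG00000008658), the splicing regulator that also marks these nuclei, stood at 2503 and 2086 CPM at ZT4 and at 702 and 744 at ZT16. It was lower in both ZT16 libraries, with no overlap, and fell by 1.71 on the log2 scale (SE 0.17, adjusted p = 0.000926). Kcnb2 (ENSMUSG00000092083), a subunit of delayed rectifier potassium channels, stood at 411 and 442 at ZT4 and 82.2 and 88.7 at ZT16 and fell by 2.37 (SE 0.26, adjusted p = 0.00136). Both calls were kept in each of the 17 alternatives, including each library left out in turn. In cKOt, Rbfox1 stood at 1989 and 1848 at ZT4 and 863 and 984 at ZT16, and Kcnb2 at 225 and 335 and then 84.7 and 142, so that the ZT16 libraries were again the lower ones.

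The levels of Rbfox1 and Kcnb2 were set against other nuclei. In Ctrl, nuclei removed by an excluded gene had Rbfox1 at 1346 and 1228 at ZT4 and 299 and 495 at ZT16. Proximal tubule nuclei, here those with at least 0.5% of UMIs on 6 proximal tubule genes, had 140 and 152, then 67.8 and 69.6, also lower at ZT16 but at a far lower level. Smoc2/Adamtsl1 nuclei had 78.1 and 107, then 17.5 and 110. Among the members, those with Ak5 held more Rbfox1 at ZT4 (2631 and 2282) than those without (2015 and 1197), and at ZT16 the sets were alike in value (702 and 772 against 701 and 694). A UMI of Rbfox1 was found in 74.8% and 72.2% of Ctrl members at ZT4 and 58.5% and 55.9% at ZT16. For Kcnb2 these were 33.1% and 36.1%, then 14.7% and 9.41%. Removed nuclei held Kcnb2 at 352 and 501 CPM, then 194 and 153, and Smoc2/Adamtsl1 nuclei at 149 and 229, then 113 and 77.7, both lower at ZT16 without overlap. Proximal tubule nuclei held 61.2 and 61.7, then 74.5 and 49.7, which overlapped.

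**Figure D3:**
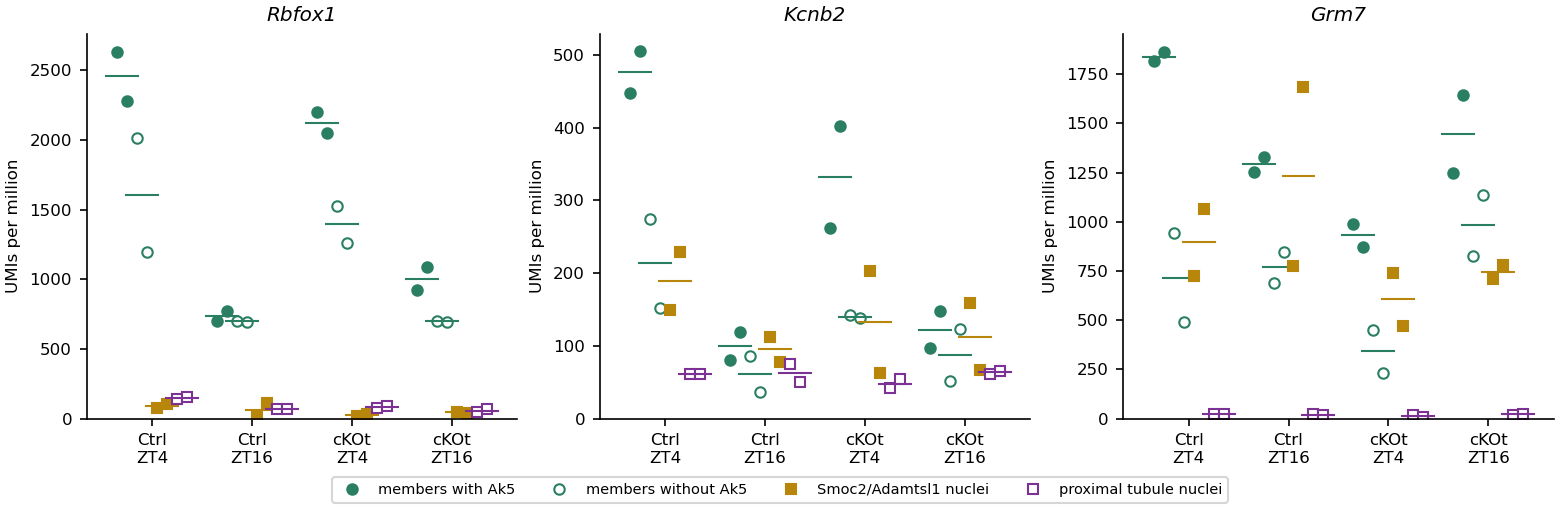
Rbfox1, Kcnb2 and Grm7 in CPM by group, each point a library and each bar the mean of 2. Filled and open circles are members with and without Ak5, filled squares Smoc2/Adamtsl1 nuclei and open squares proximal tubule nuclei. Rbfox1 in members with Ak5 runs from 2631 and 2282 in Ctrl ZT4 to 702 and 772 in Ctrl ZT16, and the other nuclei lie below.

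Clock genes made up 3 of the 7 calls, out of 15 listed clock genes that were tested. Per2 (ENSMUSG00000055866), a repressor of the clock, stood at 21.2 and 16.4 CPM at ZT4 and at 148 and 148 at ZT16, and rose by 2.94 on the log2 scale (SE 0.33, adjusted p = 0.00139). Cry1 (ENSMUSG00000020038), its partner, stood at 4.47 and 8.60, then 36.8 and 30.9, and rose by 2.24 (SE 0.37, adjusted p = 0.0496), a call held in 5 of 17 alternatives. Npas2 (ENSMUSG00000026077), which can replace CLOCK as partner of ARNTL, stood at 94.99 and 118, then 36.8 and 39.9, and fell by 1.53 (SE 0.22, adjusted p = 0.017), a call held in 11 of 17. Each of these 3 had groups that did not overlap. The REV-ERB genes were lower at ZT16 in value without a call. Nr1d2 stood at 121 and 109, then 53.3 and 49.6 (adjusted p = 0.082), and Nr1d1 at 20.1 and 36.7, then 0.721 and 1.63 (adjusted p = 0.0938).

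The remaining clock genes were not called. Arntl stood at 101 and 93.0 CPM, then 67.0 and 76.5 (adjusted p = 0.841), and Clock at 169 and 169, then 157 and 168. Cry2 stood at 22.4 and 25.0, then 49.7 and 50.4 (adjusted p = 0.295), Tef, a bZIP output factor, at 131 and 124, then 203 and 168 (adjusted p = 0.767), and Hlf at 59.2 and 67.2, then 100.2 and 72.4. Per1 replicates at ZT4 (62.6 and 14.9) lay on both sides of those at ZT16 (36.0 and 39.1). Dbp (at most 8.94) and Nfil3 (at most 10.99) were low, Rorb was not tested because no group had 5 counts in both replicates (21.2 and 0.782, then 0 and 33.4), and Rora had the highest level (4633 and 4046, then 4181 and 4335). With 2 time points the order of these levels gives no phase or amplitude. The other 2 calls were Rhobtb1 (an atypical small GTPase, 135 and 104, then 328 and 262, adjusted p = 0.0413, held in 8 of 17 alternatives) and Cubn (the endocytic receptor cubilin of the proximal tubule, 108 and 189, then 53.3 and 51.3, adjusted p = 0.0478, kept without 3 of the 8 libraries left out in turn). In proximal tubule nuclei Rhobtb1 stood at 280 and 347, then 1494 and 1490, and Cubn at 699 and 1020, then 372 and 319. Both differed in the direction of the tubule, at 0.224 and 0.195 of its pooled level, and the part of tubule RNA in these 2 calls was not tested.

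The 5′ regions of 2 called clock genes are shown because they passed the test with time in opposite directions, Cry1 up and Npas2 down. They span 250 bases before to 50 after the start of the gene on the gene's strand, from RefSeq (GRCm38.p6), at chr10:85185005-85185304 (minus strand) for Cry1 and chr1:39194022-39194321 (plus strand) for Npas2. Capitals mark the E-box CACGTG, the site class bound by ARNTL with its partners.
Cry1: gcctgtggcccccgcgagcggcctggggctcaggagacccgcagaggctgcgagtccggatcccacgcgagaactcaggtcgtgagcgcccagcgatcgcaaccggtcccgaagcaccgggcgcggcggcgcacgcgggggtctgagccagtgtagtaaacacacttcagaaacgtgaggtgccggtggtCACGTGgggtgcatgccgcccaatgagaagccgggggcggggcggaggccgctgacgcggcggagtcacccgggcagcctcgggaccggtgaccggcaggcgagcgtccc
Npas2: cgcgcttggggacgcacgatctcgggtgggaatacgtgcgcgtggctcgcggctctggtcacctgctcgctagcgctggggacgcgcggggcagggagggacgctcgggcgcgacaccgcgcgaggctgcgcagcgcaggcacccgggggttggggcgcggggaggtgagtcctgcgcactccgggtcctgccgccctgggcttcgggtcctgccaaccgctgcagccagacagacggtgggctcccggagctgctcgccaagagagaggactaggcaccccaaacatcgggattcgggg
Promoters were found for 14 of the 16 clock genes by symbol, and Per2 was not in the table used. CACGTG, which reads the same on both strands, was found in 3 of the 14 (Cry1, Per1 and Tef, 21.4%) and in 7.09% of all 27025 promoters of that length. The D-box TTATGTAA was found in none of the 14 and 0.966% of all, and the ROR element TAGGTCA in 1 (Nfil3, 7.14%) and 2.58%, both searched on both strands. The Npas2 window held none of these letters, which says only that they are absent from these 300 bases.

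In cKOt the same comparison of times called 0 of 12398 genes (0%), with 756 at an unadjusted p under 0.05, and DESeq2 called 6. Per2 stood at 40.5 and 22.02 CPM at ZT4 and 173 and 96.9 at ZT16 (log2 difference 2.07, SE 0.32, adjusted p = 0.0673), and Rbfox1 differed with an adjusted p of 0.0673 as well. Npas2 stood at 238 and 198, then 140 and 138, Cry1 at 17.7 and 25.0, then 42.0 and 46.0, and Nr1d2 at 74.7 and 86.6, then 33.0 and 38.5. Each of these 5 genes had the same direction in value as in Ctrl, and the share of all genes that did so was not counted. Hspa5, a chaperone of the endoplasmic reticulum named after its value was seen, had the same adjusted p (log2 difference 1.92, SE 0.29, adjusted p = 0.0673). Whether the time difference itself differed between genotypes was tested as an interaction, which called 0 of 12998 genes (0%), with 507 at an unadjusted p under 0.05 and 1 by DESeq2. Loss of a call in cKOt is therefore not shown to be a difference between genotypes.

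The second comparison asked how levels in the members differed between cKOt and Ctrl, whose targeted cells are the tubules. At ZT4, 11 of 11779 genes (0.0934%) were called, 9 higher and 2 lower in cKOt, with 762 at an unadjusted p under 0.05. At ZT16, 12 of 12803 (0.0937%) were called, 9 higher and 3 lower, with 534 unadjusted. They were 21 different genes, 2 of which were called at both times, and 18 of the 21 stood below 0.5 of their level in proximal tubule nuclei. Of all genes tested, 1249 of 11779 at ZT4 and 1366 of 12803 (10.7%) at ZT16 stood below it, as did 3 of the 7 genes called with time in Ctrl. The 6 genes that define those tubule nuclei stood at 0.175 to 0.242 of the tubule level in members. Their sum in members was 1919 and 2099 CPM in Ctrl ZT4, 1781 and 1611 in Ctrl ZT16, 2215 and 2584 in cKOt ZT4, and 2619 and 2275 in cKOt ZT16. It was higher in every cKOt library than in every Ctrl library, and its part in the genotype calls was not tested.

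At ZT4 the genes called with the smallest p and without overlap included Rhobtb1 and Ndrg1 (higher) and Cyp2a4 and Grm7 (lower). Rhobtb1 stood at 135 and 104 CPM in Ctrl and 467 and 527 in cKOt (log2 difference 2.05, SE 0.20, adjusted p = 0.000763), beside 280 and 347, then 2009 and 1887 in proximal tubule nuclei. Ndrg1, a stress-responsive gene, stood at 153 and 226, then 609 and 647 (1.71, SE 0.20, adjusted p = 0.00383), beside 882 and 1112, then 3131 and 2530 in the tubule. Cyp2a4, a steroid hydroxylase, stood at 27.9 and 19.5, then 1.27 and 1.47 (-4.01, SE 0.65, adjusted p = 0.0277), beside 32.1 and 28.8, then 2.31 and 3.09. The calls were held in 16, 15 and 7 of 17 alternatives for Rhobtb1, Ndrg1 and Cyp2a4, and DESeq2 gave Cyp2a4 an adjusted p of 0.281. In all 3 the members followed the tubule in direction. Cyp2a4 differs little in sequence from other members of its family, so its counts are uncertain. Its cKOt levels also rest on very few UMIs per library, so the size of its difference is uncertain too.

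Grm7, a metabotropic glutamate receptor, was also called at ZT4, but at a level far above the tubule. It stood at 1635 and 1615 CPM in Ctrl ZT4, 1114 and 1155 in Ctrl ZT16, 821 and 709 in cKOt ZT4, and 1135 and 1510 in cKOt ZT16. The cKOt ZT4 libraries were the lowest of the 8, and at ZT4 the gene was lower in cKOt by a log2 difference of -1.09 (SE 0.18, adjusted p = 0.0315). Proximal tubule nuclei held 22.5 and 25.9 in Ctrl ZT4 and 15.8 and 7.93 in cKOt ZT4, also lower in cKOt, and the pooled level in members was 66.2 times theirs. Among the members, Grm7 stood at 1816 and 1862 with Ak5 and 943 and 490 without it in Ctrl ZT4, and at 988 and 873 with Ak5 and 452 and 230 without it in cKOt ZT4. Smoc2/Adamtsl1 nuclei held 725 and 1064, then 741 and 470. Nuclei removed by an excluded gene held more Grm7 than members, at 2101 and 2323 in Ctrl ZT4 and 1474 and 2038 in cKOt ZT4. There cKOt ZT4 replicate 2 lay above Ctrl ZT16 replicate 1 (1743), unlike in members. The call was held in 11 of 17 alternatives. It was lost without any 1 of the 4 ZT4 libraries (edgeR adjusted p up to 0.257, without Ctrl replicate 1), under the stricter rule (0.0906) and without the members that carried at least 3 proximal tubule genes (0.0791), with log2 differences from -1.22 to -0.93 in these 6.

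At ZT16 the genes named by the same rule included Npas2, Hao2 and Gm13936 (higher) and Cyp2a4 and Ces1d (lower). Npas2 stood at 36.8 and 39.9 CPM in Ctrl and 140 and 138 in cKOt (log2 difference 1.89, SE 0.21, adjusted p = 0.00436), beside 185 and 175, then 528 and 523 in proximal tubule nuclei. Hao2, a peroxisomal oxidase, stood at 11.5 and 2.44, then 55.1 and 90.0 (3.35, SE 0.47, adjusted p = 0.0187), beside 48.8 and 24.9, then 253 and 293 in the tubule. Gm13936 stood at 1.44 and 1.63, then 21.3 and 30.2 (4.01, SE 0.59, adjusted p = 0.0214), beside 19.99 and 10.1, then 110 and 159. Ces1d, a carboxylesterase with close paralogs, stood at 23.8 and 27.7, then 4.82 and 4.81 (-2.36, SE 0.39, adjusted p = 0.032, held in 8 of 17 alternatives, with a DESeq2 adjusted p of 0.304), beside 122 and 156, then 19.7 and 19.3. Cyp2a4 stood at 17.3 and 21.2, then 1.38 and 0.687 (-4.05, SE 0.57, adjusted p = 0.0187), with a DESeq2 adjusted p of 0.0674. The cKOt levels of Cyp2a4, the Ctrl levels of Gm13936 and the lower Ctrl level of Hao2 rest on very few UMIs per library. The size of these differences is therefore uncertain. The calls were held in 15 of 17 alternatives for Npas2, 14 for Hao2, and 11 each for Gm13936 and Cyp2a4.

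Of the 23 calls of a gene at a time, 22 had proximal tubule levels apart in the same direction, the exception being Egfem1 at ZT16. Egfem1 stood at 4.32 and 1.63 CPM in Ctrl ZT16 and 32.4 and 48.8 in cKOt ZT16 (log2 difference 3.72, SE 0.56, edgeR adjusted p = 0.0214). With an equal number of members per library it was not called (3.13, edgeR adjusted p = 0.865). Of all genes tested, 22.1% at ZT4 and 21.4% at ZT16 had tubule levels apart in the direction of the members' difference. For the 7 calls with time in Ctrl this held for 5, against 28.3% of the genes tested. When the 1015 members with at least 3 proximal tubule genes were left out, 0 of the 11 and 0 of the 12 calls were kept, against 4 of the 7 calls with time in Ctrl (Kcnb2, Npas2, Per2 and Rbfox1). The 1856 members kept were shallower than those left out (median 2272.5 UMIs against 3192), and in that setting the comparison of times in cKOt called 13 genes. In that setting all 10 called genes that could be fitted at ZT4 and all 12 at ZT16 kept their sign, and 6 and 9 of them kept at least 0.75 of their log2 difference (median ratio 0.833 and 0.831). Cyp2a4 at ZT4 went from -4.01 to -3.56 (edgeR adjusted p = 0.362), Folh1 from 2.33 to 2.38 (0.0803) and Ddc from 2.58 to 2.75 (0.387). At ZT16 Mpp6 stayed at 1.87 (0.140). Among those lower in size were Rhobtb1 at ZT4, from 2.05 to 1.13 (adjusted p = 0.228), and Npas2 at ZT16, from 1.89 to 1.16 (adjusted p = 0.446). Dab2 at ZT16 went from 1.23 to 0.63 (adjusted p = 0.908) and Gm13936 from 4.01 to 2.40 (adjusted p = 0.995). Of the lost time calls, Cubn went from -1.57 to -1.42, Cry1 from 2.24 to 2.00 and Rhobtb1 from 1.26 to 0.50. The part that tubule RNA has in the genotype calls was not tested further.

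**Figure D4:**
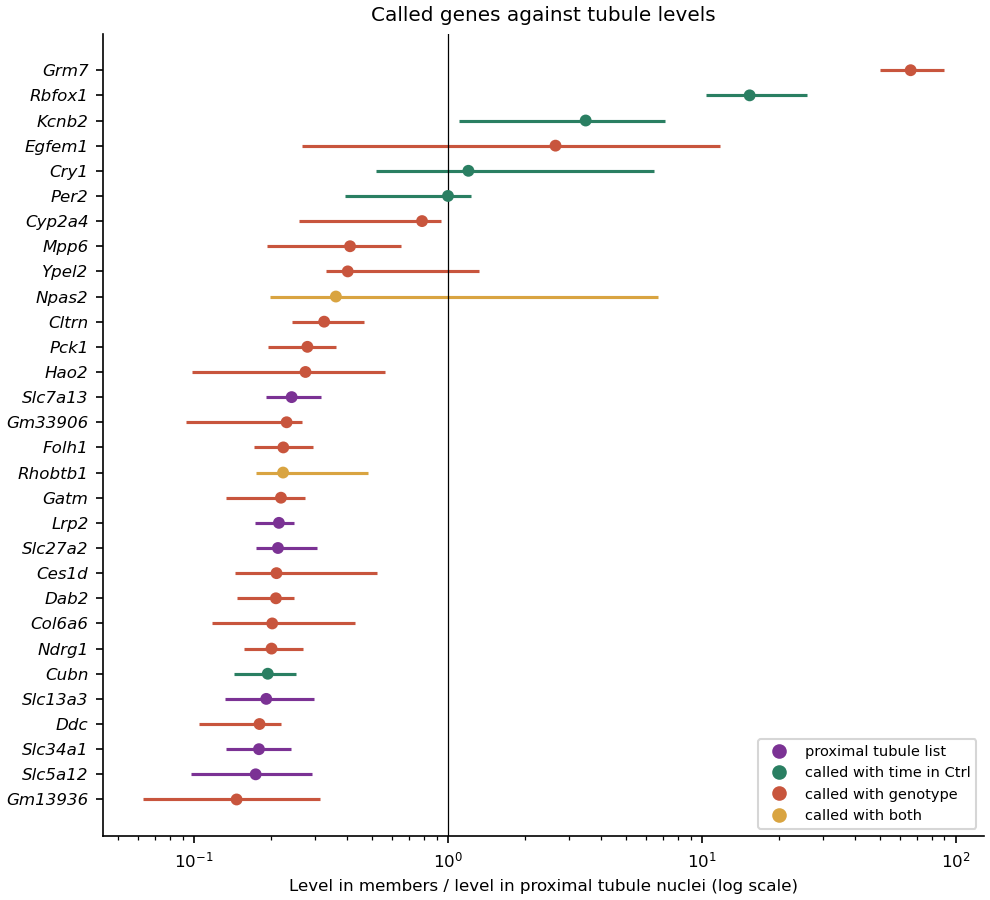
Ratio of the level in members to that in proximal tubule nuclei (log scale) for called genes and for 6 proximal tubule genes, leaving out called genes that are not reported here. Points are pooled over libraries and lines run from the lowest to the highest library, coloured by the comparison that called the gene. The 6 proximal tubule genes lie between 0.175 and 0.242, with many of the genes called with genotype around them, whereas Grm7 (66.2), Rbfox1 (15.4), Kcnb2 (3.48), Egfem1 (2.65) and Cry1 (1.20) lie to the right of 1.

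Arntl, the targeted gene, was not called in the members. It stood at 101 and 93.0 CPM in Ctrl ZT4, 67.0 and 76.5 in Ctrl ZT16, 190 and 137 in cKOt ZT4, and 141 and 115 in cKOt ZT16, higher in every cKOt library than in every Ctrl library (log2 difference 0.75, SE 0.22, adjusted p = 0.462 at ZT4, and 0.86, SE 0.21, adjusted p = 0.402 at ZT16). In proximal tubule nuclei it stood at 11.6 and 13.98, then 154 and 157 in Ctrl, and at 264 and 172, then 263 and 233 in cKOt. Counts at the 3′ end of the transcript need not cover the deleted part, so they check neither the deletion nor the labels.

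In the 4 comparisons within a genotype or a time, only the clock list had called genes. The tested genes of the stromal identity (12), matrix (25), nitric oxide and cGMP (11) and signalling (24 to 27) lists had 0 calls in each, and so had the immediate early, heat shock and endocrine lists. The matrix list did not hold the collagen gene Col6a6, which was called with genotype at both times (log2 difference 3.52 and 3.30, edgeR adjusted p = 0.0257 and 0.0262). Col6a6 stood at 2.24 and 3.91 CPM in Ctrl ZT4 and 32.9 and 44.0 in cKOt ZT4, at 0.203 of its pooled tubule level. At ZT4 in cKOt against Ctrl the median log2 difference was -0.44 over the stromal identity genes and -0.29 over the matrix genes, against -0.01 over all 11779 genes tested. At ZT16 the medians were -0.12 and -0.05. The 6 proximal tubule genes had a median of 0.25 at ZT4 and 0.18 at ZT16, with 0 calls. The cKOt ZT4 libraries also held the most members with fewer than 2 of the general stromal genes (28 of 311 and 26 of 226, against 18 to 25 in the other libraries), and the part of either in these medians was not tested. The heat shock and cold-inducible list had a median of 1.13 with time in Ctrl, without a call. Its sum was 483 and 474 CPM in Ctrl ZT4, then 888 in both Ctrl ZT16 libraries. In cKOt the median was -0.35, also without a call, but the replicates were wide apart and the times overlapped, at 1045 and 445, then 993 and 603 CPM. Itga8, an integrin of stromal and mesangial cells, had the log2 difference -1.16 with time in Ctrl (SE 0.23, adjusted p = 0.138), and Hpgd -1.47 with genotype at ZT4 (SE 0.27, adjusted p = 0.0833). These 2 genes were named after their values were seen.

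The third comparison asked whether the time difference in Ctrl was the same in members as in proximal tubule nuclei of the same libraries, here all 45625 non-members with at least 3 of the 6 tubule genes. This set held many nuclei with few tubule UMIs: 57.5% reached 0.5% of UMIs on the 6 genes, and 35.4% of members met the same count of 3 genes. Of 20302 genes, 60 (0.296%) were called, 25 with a higher and 35 with a lower difference in members, and 1002 had an unadjusted p under 0.05. The fit had the library as a block and gave every gene the same prior spread at its level, an assumption its p-values rest on, and DESeq2 called 13. Arntl stood lower at ZT16 in members (101 and 93.0 to 67.0 and 76.5) and stood higher at ZT16 in these tubule nuclei (21.6 and 21.9 to 143 and 144, or 11.6 and 13.98 to 154 and 157 in those with at least 0.5%), a log2 difference between the changes of -3.22 (SE 0.22, adjusted p = 2.79e-44). For Npas2 it was -4.26 (SE 0.23, adjusted p = 1.26e-72), with 16.9 and 25.6, then 142 and 135 in the tubule. Both genes thus differed with time in opposite directions in value in these 2 sets of nuclei.

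Some output and repressor genes were called too, among them 1 of the 13 on the clock output list (Per3). For Per3 the difference was 2.26 (SE 0.28, adjusted p = 1.39e-12), with 40.2 and 25.0, then 85.1 and 63.5 in members and 59.1 and 61.0, then 32.1 and 23.9 in the tubule. For Tef it was 1.10 (SE 0.20, adjusted p = 3.58e-05), for Dbp 3.18 (SE 0.64, adjusted p = 0.000608) and for Per2 1.27 (SE 0.27, adjusted p = 0.0019). The Dbp call was held in 16 of 17 alternatives (adjusted p up to 0.119) and the Per2 call in 14 (up to 0.0904). Nr1d2, Nr1d1, Cry1, Cry2 and Per1 were not called (edgeR adjusted p = 0.268 for Nr1d2, 0.648 for Cry2 and above that for the others). For Kcnb2 the difference was -2.01 (SE 0.20, adjusted p = 1.46e-19), and tubule nuclei held 56.4 and 65.9, then 57.8 and 37.7. Fmo2, a flavin monooxygenase, stood at 178 and 196, then 342 and 256 in members and at 163 and 188, then 79.5 and 81.1 in the tubule (1.72, SE 0.19, adjusted p = 1.1e-15). Synpr (2.99) varied more between tubule replicates, at 25.5 and 136 in Ctrl ZT4, than between times in members.

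**Figure D5:**
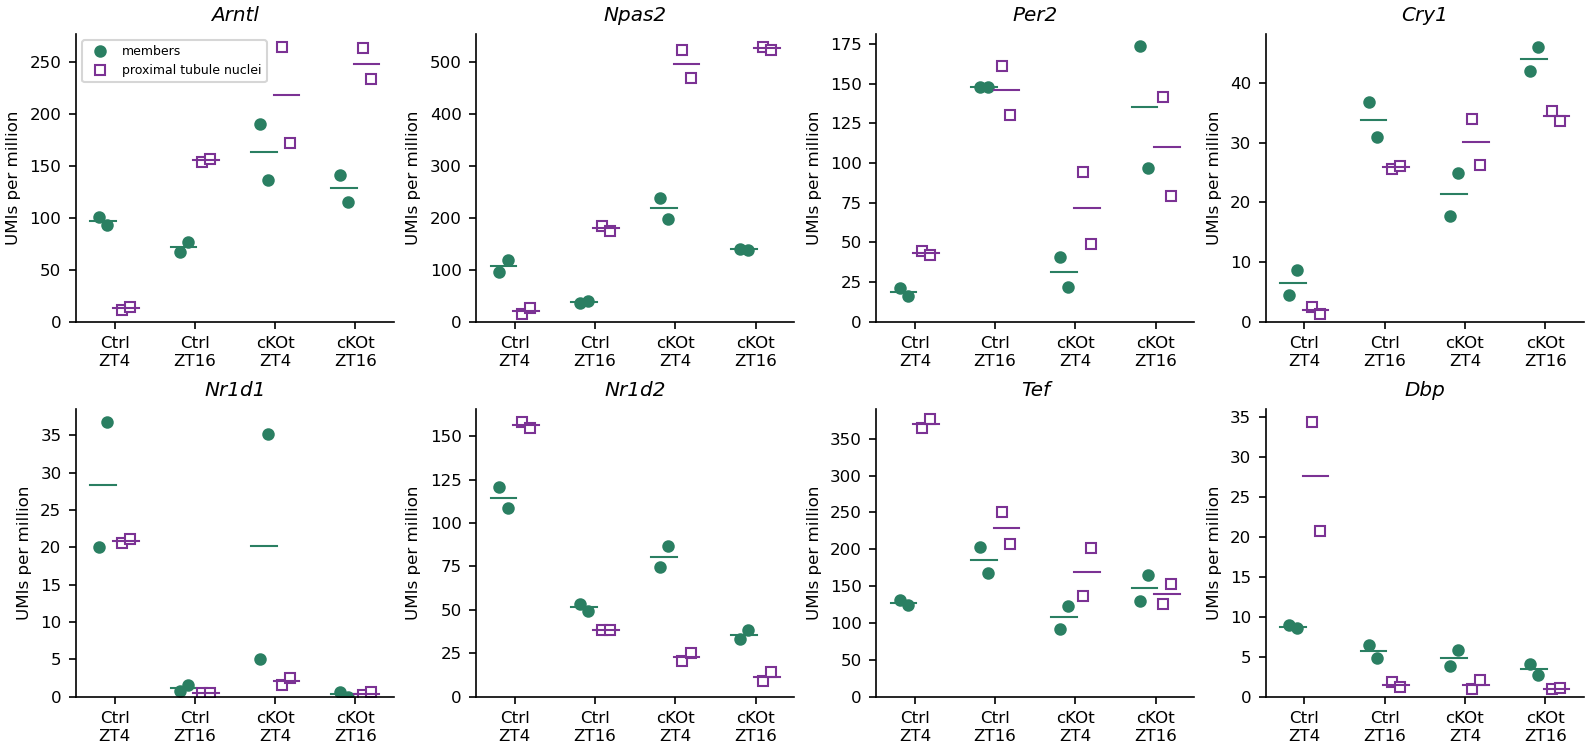
Clock genes in members (circles) and in proximal tubule nuclei with at least 0.5% of UMIs on 6 tubule genes (open squares), in CPM by group, each point a library and each bar the mean of 2. Arntl and Npas2 are higher at ZT4 than at ZT16 in Ctrl members (101 and 93.0 against 67.0 and 76.5 for Arntl) and lower in Ctrl tubule nuclei (11.6 and 13.98 against 154 and 157), while Per2 is higher at ZT16 in both.

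The difference between genotypes over both times was compared with that of the tubule nuclei in the same way, and 90 of 20302 genes (0.443%) were called, 52 with a higher and 38 with a lower difference in members (1173 at an unadjusted p under 0.05). Npas2 was higher in cKOt in both sets but by less in members (log2 difference between the changes -1.58, SE 0.15, adjusted p = 8.85e-21), and so was Arntl (-1.24, SE 0.15, adjusted p = 6.21e-13). Nr1d2 was lower in cKOt in the tubule (150 and 152 at ZT4 in Ctrl, 28.8 and 36.1 in cKOt) and by less in members (1.36, SE 0.18, adjusted p = 3.41e-11). Adgrb3, an adhesion receptor, stood between 64.5 and 123 in members of all groups and at 38.0 to 64.2 in Ctrl and 9.27 to 11.04 in cKOt tubule nuclei (1.99, SE 0.17, adjusted p = 1.09e-26). Angptl4, an inhibitor of lipoprotein lipase, stood at 17.1 to 29.1 in Ctrl and 27.8 to 41.2 in cKOt members, and at 9.77 to 18.5 and 1.98 to 7.24 in the tubule (2.69, SE 0.28, adjusted p = 2.21e-17). Thra, a thyroid hormone receptor, stood at 58.2 to 138 in members of all groups and at 37.4 to 47.0 in Ctrl and 73.1 to 94.9 in cKOt tubule nuclei (-1.11, SE 0.16, adjusted p = 8.59e-09). For these 3 genes the genotypes overlapped in members and did not overlap in the tubule. Egfem1 had the difference 2.40 (SE 0.28, adjusted p = 3.3e-14). Of the other lists, matrix had 2 of 27 genes called (Col8a1 and Col5a2) and immediate early genes 2 of 9 (Ier2 and Egr1). In each of these the genotype difference, not the level, was lower in members.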

How the data were processed

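Single-nucleus libraries (10x 3′ v3.1) of 8 kidneys were measured. The authors deposited unnormalised UMI counts per gene and barcode, made with Cell Ranger 7.1.0 after bcl2fastq 2.20 per the labels' processing notes, which also list Seurat 5 and GRCm39. The study's methods name another build, so no coordinates were taken for counted genes, and no source named how intron reads were handled. Members and gene lists were chosen with earlier results of these data known. No doublet caller was run and the deepest member had 28645 UMIs. Counts were summed over nuclei per library, and a gene was tested when both mice of a compared group reached 5 counts, by edgeR 4.0.16 (R 4.3.3; TMM, quasi-likelihood, all 8 libraries in a model of the 4 groups, Benjamini-Hochberg limit 0.05). The comparison with tubule nuclei had the library as a block. Levels were scaled without TMM. Each library is 1 mouse, with 2 mice per group. Shares were compared by exact permutation tests (scipy 1.17.1). Proximal tubule nuclei by UMI share were defined after the data were seen. Beyond the rule and clock genes, named genes were the 3 called with the smallest p per direction, and those with the highest and lowest ratios. Groups without overlap were required within a genotype or a time, not in the comparisons with the tubule. Other called genes, such as Cubn and Col6a6, and examples from the gene lists were named outside this rule. In simulated counts for the time comparison in Ctrl (12231 genes), 36.2% of 2-fold, 97.0% of 4-fold and 100% of 8-fold changes were recovered. Changes were placed only in genes with more counts, so recovery was not tested at all for genes with few counts. The simulated spread was set by a gene's level alone, without a spread of its own. In the measured counts of that comparison Nr1d1, at 36.7 CPM or less, had a log2 difference of -4.58 without a call (edgeR adjusted p = 0.0938). Same-numbered replicates correlated at -0.195 to 0.233 over 7969 genes, so the numbers did not pair the mice. Alternatives were DESeq2 1.42.0, other filters and member rules, and each library left out. Results for some genes are not reported here, while counts of called genes include them.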

Additional observations from a re-analysis of the deposited data

Results flagged for a closer look

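The difference with time in Ctrl was compared between members and proximal tubule nuclei, and the test of that difference called 60 genes. The log2 differences between the changes (members minus tubule, edgeR quasi-likelihood test) were -4.26 for Npas2, -3.22 for Arntl, -2.01 for Kcnb2, 2.99 for Synpr, 2.26 for Per3 and 1.72 for Fmo2. The same test for genotype over both times called 90 genes, with 2.69 for Angptl4, 2.40 for Egfem1, 1.99 for Adgrb3, -1.58 for Npas2, -1.24 for Arntl and -1.11 for Thra. No group of 4 libraries held a share that stood apart from the others by Dixon's criterion.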

How the results depend on the processing

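Numbers of called genes are given in the order time in Ctrl, time in cKOt, genotype at ZT4, genotype at ZT16, interaction. With genes of any count above 0 tested they were 108, 94, 90, 73 and 45. DESeq2 gave 11 for time in Ctrl, 6 for time in cKOt, 1 for the interaction, and 13 and 26 for the comparisons of time and genotype with the tubule. With mRNAs and lncRNAs adjusted separately, time in cKOt gave 1 and the tubule comparisons 37 and 59. A stricter rule gave 2 for time in cKOt, 6 for genotype at ZT4 and 1 for the interaction. Without members carrying at least 3 proximal tubule genes the first 4 were 4, 13, 1 and 0. With 226 members per library, time in Ctrl gave 3, genotype 5 at either time and genotype against the tubule 55. Settings chosen after seeing the data were members with at least 2 stromal panel genes (2 for time in cKOt, 1 for the interaction) and tubule nuclei by UMI share (128 and 259). The cause of these differences was not tested.

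Leaving out 1 library gave 2 (without Ctrl ZT4 replicate 2) to 14 (without either cKOt ZT4 library) for time in Ctrl, 0 to 12 (without cKOt ZT4 replicate 1) for time in cKOt, 1 (without Ctrl ZT4 replicate 1) to 16 for genotype at ZT4, 0 (without cKOt ZT16 replicate 2) to 16 at ZT16, 0 to 2 for the interaction, 35 (without Ctrl ZT16 replicate 1) to 118 (without Ctrl ZT4 replicate 1) for time against the tubule and 46 (without cKOt ZT16 replicate 2) to 183 (without Ctrl ZT4 replicate 2) for genotype against it. Counts also differed over 1.5 times from the full set without either cKOt ZT16 library for time in Ctrl (3), without Ctrl ZT16 replicate 1 (2) or 2 (5) or cKOt ZT16 replicate 2 (2) for time in cKOt, without Ctrl ZT4 replicate 2 for genotype at ZT4 (3), without Ctrl ZT16 replicate 1 (5) or 2 (2) or cKOt ZT16 replicate 1 (2) for genotype at ZT16, and without cKOt ZT16 replicate 1 for genotype against the tubule (53). The difference in member share between genotypes ranged from -0.528 to 0.113 percentage points, turning in sign without cKOt ZT4 replicate 2, and that between times from 0.480 to 0.978. A fit with a replicate block called 9, 0, 10, 11 and 0 genes, although the numbers do not pair the mice. With 2 mice per group, simulated differences of 2-fold were mostly not called, and genes with few counts were not simulated to change.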
